A study of Mus musculus with 2 samples.

Results

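The MHC class II genes are described here in single-cell RNA from mouse bone marrow derived macrophage cultures. The 10 members were the genes with the symbols H2-Aa, H2-Ab1, H2-Eb1, Cd74, Ciita, H2-DMa, H2-DMb1, H2-DMb2, H2-Oa and H2-Ob, and all 10 were found among the 31053 genes counted in both libraries. Marrow cells of wild-type 129Sv mice were grown with 50 ng/ml M-CSF, a growth factor for macrophages, in medium with 10% fetal bovine serum. On day 7, 1 group received Tamm-Horsfall protein (THP), a kidney glycoprotein, in a form that is truncated and does not polymerize, at 1 µg/ml. The other group received only the 5% dextrose used as vehicle, and both were kept for 18 h. The labels do not say how many mice or dishes stand behind a library. Each group was 1 library, so no difference below has a replicate check, no p-value is given, and treatment cannot be told apart from dish or library preparation.

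MHC class II molecules are pairs of an alpha and a beta chain that carry peptides from the endosome to the cell surface, where CD4+ T cells read them. The invariant chain (Cd74) fills the groove of a new pair and guides it to the endosome, the DM pair removes what is left of it and loads peptides, and the DO pair restrains DM. Ciita does not bind DNA itself: it docks on RFX, CREB and NF-Y proteins that sit on the X and Y boxes shared by the promoters of these genes. Dendritic cells and B cells make class II constantly, while macrophages grown in M-CSF make little until interferon gamma induces Ciita.

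In the GENCODE M21 annotation of GRCm38 (mm10), 8 members lie together on chromosome 17, from H2-Oa (chr17:34092340-34095234) through H2-DMa (chr17:34119541-34139101), H2-DMb2 (chr17:34143307-34151555), H2-DMb1 (chr17:34153072-34160230), H2-Ob (chr17:34238903-34254414), H2-Ab1 (chr17:34257689-34269419) and H2-Aa (chr17:34282744-34287823) to H2-Eb1 (chr17:34305867-34316674). Ciita lies apart at chr16:10480059-10528418. H2-Aa is on the minus strand and the other members named with positions are on the plus strand.

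The promoter boxes through which Ciita acts are shown because they are what the members are known to share apart from their function. In the RefSeq promoters (GRCm38.p6, 250 bases before to 50 after a start), which list 7 of the 10 members (those of H2-Ab1, Ciita and Cd74 were not analysed here), 6 members had a match to the Y box letters TGATTGG. Of these, 4 also matched the X box letters, AAC, any 2 bases and then ATGATG. Both strands were searched, and the letters were chosen after these promoters had been read. H2-Aa had no match to the X letters but held the CREB box TGACGTCA, whose letters do not overlap the Y box. Capitals mark the matches, each stretch reads 5′ to 3′ on the gene's strand, and the Y box is the last match on each line.
H2-Eb1, chr17:34305768-34305822: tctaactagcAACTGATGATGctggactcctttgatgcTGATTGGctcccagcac
H2-DMb1, chr17:34153089-34153144: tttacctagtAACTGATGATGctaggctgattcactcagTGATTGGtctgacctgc
H2-DMb2, chr17:34145118-34145173: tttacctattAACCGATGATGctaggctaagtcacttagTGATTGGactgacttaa
H2-Ob, chr17:34238810-34238862: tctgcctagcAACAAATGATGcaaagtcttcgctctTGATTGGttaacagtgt
H2-Aa, chr17:34287857-34287907, minus strand: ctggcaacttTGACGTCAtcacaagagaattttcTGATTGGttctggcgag
H2-Oa, chr17:34092324-34092350: agaactgctcTGATTGGctgcttaccg

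Between the end of the X letters and the start of the Y letters lay 17 bases in H2-Eb1, 18 in H2-DMb1, 18 in H2-DMb2 and 15 in H2-Ob. Of 32851 promoters of this length, 7.82% held the Y letters, 0.137% the X letters, 1.79% the CREB letters and 0.0274% (9 promoters of 7 genes) both X and Y. The other genes with both were Gm38969, Nubp2 and Spsb3. The 2 listed starts of H2-DMa had no match to any of the 3 sets of letters.

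The THP library held 12123 kept cells of 13193 barcodes and 224825484 UMIs (unique molecular identifiers, each standing for 1 captured RNA molecule), and the vehicle library 10978 of 11584 and 207662132. Median UMIs per kept cell were 16113 and 17223, and 38 kept barcodes were shared by both libraries. Although labelled macrophages, the cells were mixed. By gates built on marker genes that include no member, 31.9% of kept THP cells and 19.1% of vehicle cells were macrophages, 9.61% and 7.93% C1q-high macrophages, 8.45% and 8.72% cells with osteoclast-type genes, 6.37% and 10.4% monocytes, 13.5% and 19.0% immature neutrophils and 9.64% and 12.1% mature neutrophils. Dendritic gated cells were 1.16% and 1.85%, and 10.6% and 9.43% of cells were left in no gate. These either met none or passed the neutrophil or progenitor level together with raised macrophage markers.

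Summed over all kept cells, all 10 members had lower CPM (UMIs per 1000000 UMIs of the library) in the THP library than in the vehicle library, and 6 of 10 with equal weight for each cell. The alpha chain gene H2-Aa stood at 248 CPM in THP and 314 in vehicle, and the beta chain genes H2-Ab1 at 228 and 285 and H2-Eb1 at 208 and 270.4. Cd74, the invariant chain, stood at 858 and 1080.2 CPM. These chains of the class II pair and its chaperone were thus 1.25-fold to 1.30-fold lower, and their exact Poisson 95% intervals, which cover counting error only, did not overlap between the libraries.

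Ciita, the master transactivator, differed most of the 10, with 8.07 CPM in THP (95% interval 7.71 to 8.45) and 15.6 in vehicle (15.1 to 16.2), a 1.93-fold lower level. The DM genes, whose pair exchanges peptides, came next: H2-DMa stood at 63.3 and 96.8 CPM and H2-DMb1 at 54.8 and 72.2. H2-DMb2, a near copy of H2-DMb1 with which it may share or lose reads, stood at 4.44 and 5.65. Of the DO genes, H2-Oa stood at 5.03 and 6.35 CPM and H2-Ob at 2.18 and 2.77. The intervals of these 6 genes did not overlap between the libraries either. At this depth small differences give the same: a gene of the RFX proteins at 45.6 CPM in THP and 47.7 in vehicle had no overlap. The share of all genes without overlap is not given here, so non-overlap is not read as particular to the members.

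**Figure D1:**
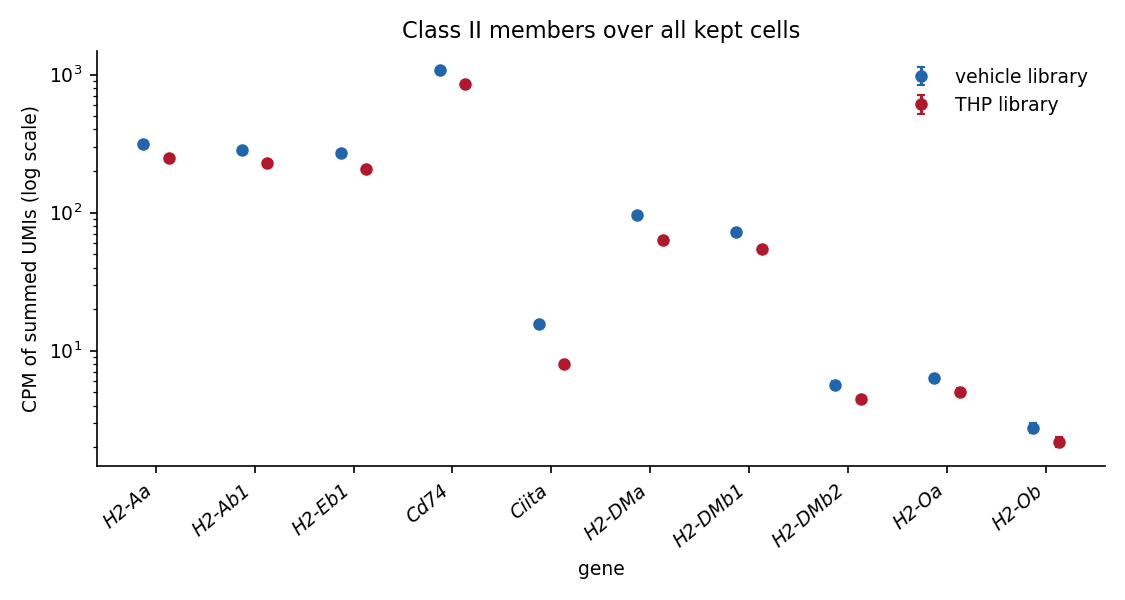
CPM of summed UMIs (log axis) for the 10 members over all kept cells, vehicle in blue and THP in red, with exact Poisson 95% intervals that are mostly smaller than the points. Every member lies lower in THP in these sums (6 of 10 with equal weight for each cell), with the widest gap for Ciita at 8.07 against 15.6 CPM.

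A shift of this kind was common among all genes. Of 8012 genes with at least 10 CPM in a library, 67.6% were lower in THP, and so were the 7 members that reached this level (all but H2-DMb2, H2-Oa and H2-Ob). Their median log2 ratio of CPM + 1, THP over vehicle, was -0.38 beside -0.18 for all genes tested. At 1.5-fold lower stood 2 of the 7, Ciita and H2-DMa, beside 17.3% of all genes, and at 2-fold lower stood 0 of 7 beside 2.97%. TMM scaling, which centres the bulk of genes, moved the log2 ratio of the summed H2-Aa, H2-Ab1, H2-Eb1 and Cd74 from -0.34 to -0.054 and that of Ciita from -0.87 to -0.61, and left all 10 members lower. With equal weight for each cell, only 6 members were lower: H2-Aa, H2-Ab1, H2-Oa and H2-Ob then had log2 ratios of 0.0078, 0.028, 0.13 and 0.12. Ciita has the longest transcript of the 10 (6007 bases), and long transcripts were lower in THP: correcting for length by a smooth curve over all genes left Ciita at -0.43, beside -0.60 for H2-DMa and -0.14 to -0.46 for the others.

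By gate, class II RNA was highest in dendritic cells and next in B lineage cells. H2-Aa, H2-Ab1, H2-Eb1 and Cd74 together made up 21616 CPM in dendritic gated cells of THP and 24146 of vehicle. B lineage cells followed with 5991 and 6115. Osteoclast-type cells stood at 1655 and 2197, macrophages at 988 and 1447, monocytes at 720.1 and 997, and C1q-high macrophages at 511 and 673. Neutrophils, which are known to make little class II, give a background level: immature ones stood at 396 and 289 CPM and mature ones at 702 and 527, which in THP lies close to monocytes and above C1q-high macrophages. Mature neutrophils that were not class II-high, in the sense given below, stood at 108 and 126. The order of the 6 gates from dendritic cells to C1q-high macrophages was the same in both libraries, but with 1 library a group, whether neighbours differ beyond the spread between cultures cannot be told. Cells left in no gate stood at 6670 and 6822 CPM and held 38.1% and 33.8% of all UMIs of the 4 genes.

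In the macrophage gate the 7 members with at least 10 CPM were all lower in THP, beside 65.7% of the 7793 genes tested there, with a median log2 ratio of -0.57 beside -0.16. H2-Aa stood at 140 CPM in THP and 209 in vehicle, H2-Ab1 at 129 and 193, H2-Eb1 at 114 and 173 and Cd74 at 604 and 872. Ciita stood at 4.21 and 10.1 CPM, the 1 member of the 7 past 2-fold lower beside 2.71% of genes. H2-DMa stood at 33.9 and 51.6 and H2-DMb1 at 37.3 and 50.4. TMM scaling within the gate kept these 7 lower, with the 4 summed genes at a log2 ratio of -0.32 in place of -0.55. The macrophages of the libraries fell mostly into different clusters when cells were clustered without the members: the cluster numbered 6 held 4685 THP and 139 vehicle cells and the cluster numbered 10 held 135 and 2659.

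Of the monocyte, macrophage, C1q-high and osteoclast-type gates, the monocyte gate had the widest differences in the chain genes. H2-Aa stood at 66.7 CPM in THP and 120.3 in vehicle, H2-Ab1 at 67.9 and 118 and H2-Eb1 at 58.9 and 100.1, while Cd74 stood closer together at 527 and 658. The THP value of H2-Aa lies under that of immature neutrophils in THP. Class II-high monocytes, in the sense given below, were 20 in THP and 47 in vehicle, and held 44.2% and 51.5% of the UMIs of the 4 genes. All 6 members tested in the monocyte gate were lower, beside 65.6% of genes, with a median log2 ratio of -0.55 beside -0.16. H2-DMa was higher in monocytes than in macrophages, with 155 and 196 CPM against 33.9 and 51.6 in the macrophage gate, although H2-Aa was lower in monocytes than in macrophages. Ciita stood at 2.58 and 7.07 CPM in monocytes, below the level set for counting.

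C1q-high macrophages and osteoclast-type cells differed in the same direction. In C1q-high macrophages H2-Aa stood at 79.8 and 104.9 CPM, Cd74 at 306 and 384 and Ciita at 3.84 and 7.92. All 6 members tested were lower there, beside 67.4% of genes, and the median log2 ratio was -0.44 beside -0.18. Doubling the gate levels turned the 4 summed genes of this gate to 0.28. In osteoclast-type cells H2-Aa stood at 251 and 339 CPM, Cd74 at 992 and 1323 and Ciita at 5.40 and 14.4. All 7 tested were lower there, beside 67.2% of genes, with a median of -0.41 beside -0.16, and Ciita was past 2-fold lower beside 1.71% of genes.

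Dendritic gated cells, 141 in THP and 203 in vehicle, differed little. H2-Aa stood at 4383 CPM in THP and 4562 in vehicle, H2-Ab1 at 3479 and 4046, H2-Eb1 at 3659 and 4330.1 and Cd74 at 10094 and 11209. Ciita stood at 202 and 224 CPM, H2-DMa at 504 and 535, H2-DMb1 at 377 and 409, H2-Oa at 104.7 and 106 and H2-Ob at 36.9 and 50.4. All 10 members were lower, beside 66.7% of genes, but their median log2 ratio of -0.15 was nearer 0 than the -0.23 of all genes tested. The intervals of 7 members overlapped between the libraries, and the share of all genes with overlap is not given here. TMM scaling within the gate turned the 4 summed genes from -0.16 to 0.050, and halving the gate levels turned them to 0.019.

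The direction in these cells also depended on how they were picked. A cluster of 376 THP and 442 vehicle cells, made without the members, held 83.7% of the dendritic gated THP cells and 89.2% of those of vehicle. Of its cells 206 and 177 were left in no gate. Its leading genes were Ccl5, Apol7c, Klrd1, Il4i1, Rnase6, Siglech, Cd7, Dpp4, Ccr7 and Klrk1. In this cluster H2-Aa was higher in THP, at 6037 CPM against 4402, as were H2-Ab1 (5483 against 4051), H2-Eb1 (5441 against 4147) and Cd74 (14402 against 11429). H2-DMb2 stood at 105.3 and 61.2 CPM and H2-Oa at 124.6 and 79.2, and Ciita at 234 and 223. All 10 members were higher there, beside 28.5% of the 7956 genes tested in the cluster, with a median log2 ratio of 0.36 beside -0.28. The cluster was singled out for its share of class II-high cells. The median UMIs of the cluster's cells were 8536 in THP and 12321 in vehicle, and the part of depth in this difference was not tested.

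B lineage cells, 104 in THP and 65 in vehicle, had little difference in the chain genes, with H2-Aa at 797 and 914 CPM, Cd74 at 3698 and 3749 and H2-Eb1 at 772 and 693. Of the 10 members 7 were lower, beside 56.6% of genes. H2-Ob, whose product restrains DM in B cells, had its highest level of all gates here, with 176 CPM in THP and 154 in vehicle. Ciita rested on 13 and 26 UMIs, 32.7 and 78.7 CPM. Mast cell and basophil gated cells, 49 in THP and 30 in vehicle and so too few for the counts, had H2-Oa at 122 and 116 CPM and H2-Ob at 43.7 and 41.3. H2-DMb2 had 0 UMIs there in both libraries, H2-Aa 0 in THP and 19 in vehicle, H2-Ab1 11 and 22, H2-Eb1 5 and 10 and Cd74 32 and 90, and 0 of 49 THP and 2 of 30 vehicle cells were class II-high.

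In the neutrophil, stromal and T and innate lymphoid gates, where class II is not expected to be made, most members ran the other way in summed UMIs. The small mast cell and basophil gate did not, with the 4 genes at 140 CPM in THP and 583 in vehicle. In the immature neutrophil gate H2-Aa stood at 69.5 CPM in THP and 48.2 in vehicle, and 1 of 6 members tested was lower, beside 70.3% of genes. In the mature neutrophil gate H2-Aa stood at 110 and 93.0 and Cd74 at 343 and 265, with 1 of 6 lower beside 69.1%. In the stromal gate Cd74 stood at 355 and 219, with 0 of 6 lower beside 58.9%. In the T and innate lymphoid gate it stood at 1081 and 549.7, with 1 of 10 lower beside 64.4% and 6 of 10 past 2-fold higher beside 3.31%. In the neutrophil and lymphoid gates few cells carried the UMIs of the 4 genes: the 21 THP and 14 vehicle class II-high cells of the mature neutrophil gate held 85.4% and 76.7% of them, the 19 and 10 of the immature gate 78.0% and 65.7%, and the 7 and 4 of the T and innate lymphoid gate 94.7% and 92.6%. In the stromal gate 2 and 1 high cells held 39.6% and 11.9%, and its other cells averaged 3.40 and 1.96 class II UMIs per 10000. Cells that were not high averaged 0.759 in THP and 0.795 in vehicle in the immature neutrophil gate. They averaged 1.18 and 1.15 in the mature one and 2.29 and 1.30 in the T and innate lymphoid gate. The part of doublets, which were not removed, was not tested. Myeloid progenitors had 3 of 6 lower beside 65.9%, with H2-DMa at 111 and 112 CPM, and cells of no gate 4 of 9 lower beside 67.7%, with Ciita at 37.5 and 58.5.

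**Figure D2:**
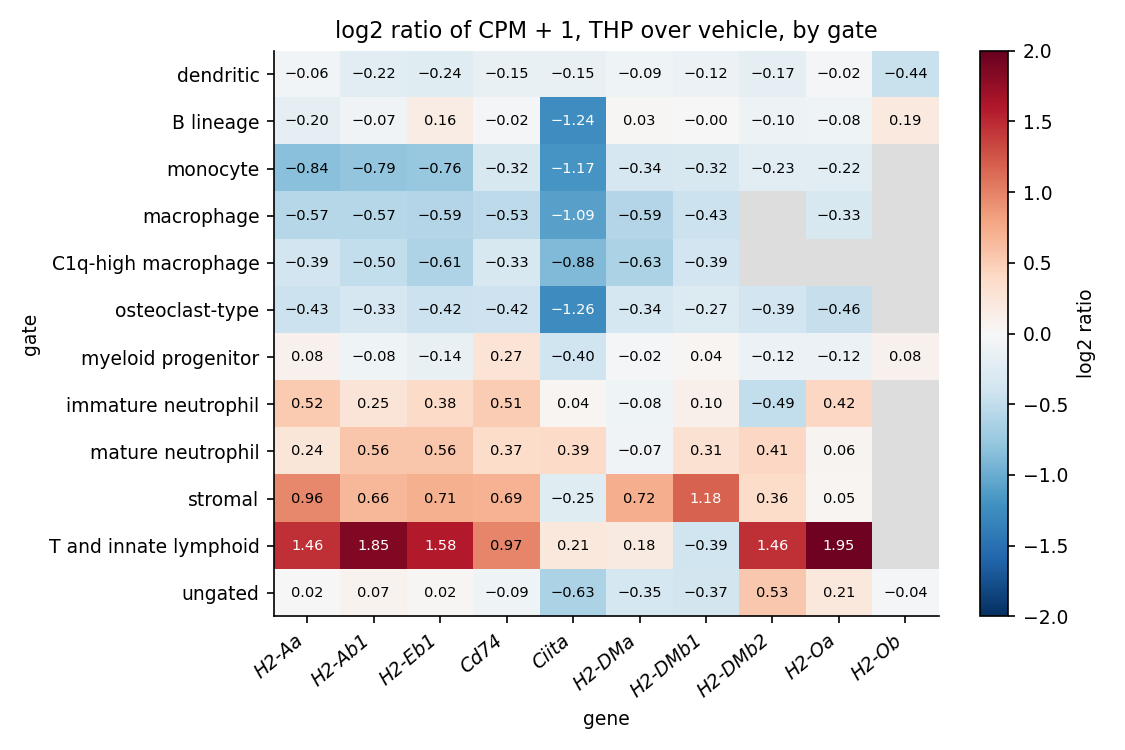
log2 ratio of CPM + 1 (THP over vehicle) for each member (columns) in each gate (rows); blue is lower in THP, red higher, and grey marks genes under 2 CPM in both libraries or under 4 UMIs in either. Ciita is lower in the monocyte, macrophage, C1q-high macrophage and osteoclast-type rows with log2 ratios of -0.88 to -1.26, and the chain genes are higher in the neutrophil, stromal and lymphoid rows.

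A difference in summed CPM can come with fewer class II-rich cells or with less class II RNA in each. Cells whose summed H2-Aa, H2-Ab1, H2-Eb1 and Cd74 reached 50 UMIs per 10000 of their own UMIs were called class II-high. The distribution over cells had no trough to place this level in, so class II-high is a range and not a type: 173 THP cells (1.43%) and 196 vehicle cells (1.79%) lay between 40 and 60. No class II UMI was found in 32.5% of THP cells and 31.2% of vehicle cells.

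**Figure D3:**
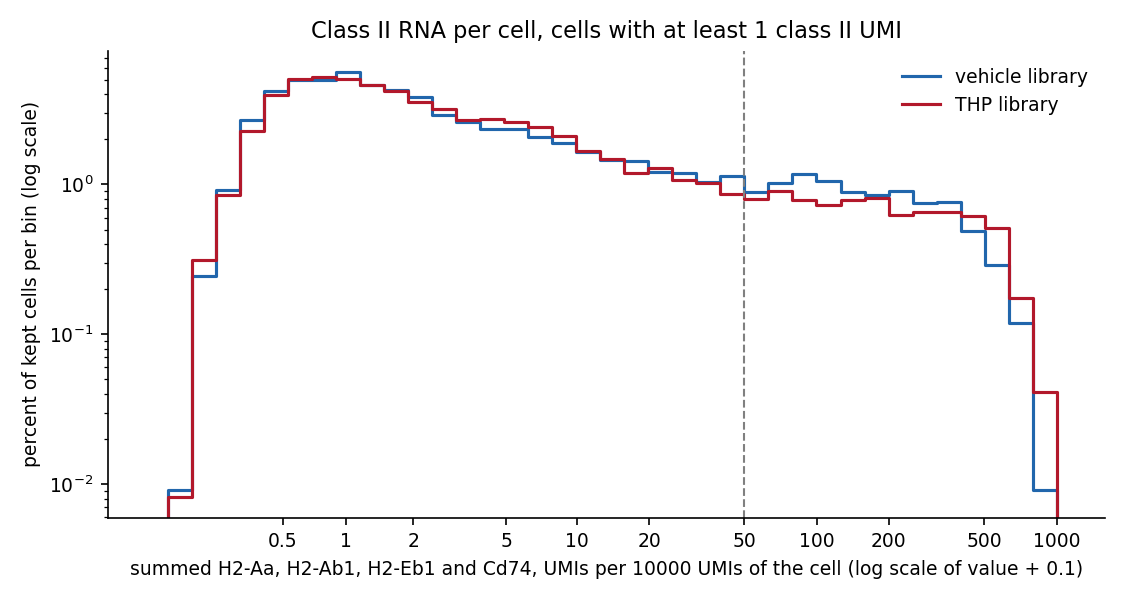
Percent of kept cells (log axis) by class II UMIs per 10000 (log scale of the value + 0.1), for cells with at least 1 such UMI, vehicle in blue and THP in red; the dashed line is the level of 50. The curves overlie up to about 40 per 10000, vehicle lies above THP around 100, and THP lies above vehicle past 500.

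High cells were 980 of 12123 in THP, 8.08% (exact binomial 95% interval 7.61 to 8.58), and 1010 of 10978 in vehicle, 9.20% (8.67 to 9.76). The difference was -1.12 percentage points (-1.85 to -0.39), counting error only. Thinning every cell to 5000 UMIs, which left out 1958 THP and 1966 vehicle cells, gave 8.38% and 10.6%. The amount in high cells was not lower in THP: it averaged 221 UMIs per 10000 (SD over cells 169.6) against 193 (SD 142), with medians of 160.2 and 144. All other cells averaged 3.37 and 3.53.

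The share of high cells was lower in THP in the gates that hold most class II RNA. It was 71.6% (63.4 to 78.9) in THP dendritic cells and 82.3% (76.3 to 87.3) in those of vehicle. This too depended on how the cells were picked: in the cluster led by Ccl5 it was 91.8% in THP and 90.0% in vehicle. Macrophages had 5.88% (5.16 to 6.67) and 8.16% (7.03 to 9.42) high cells, monocytes 2.59% (1.59 to 3.97) and 4.12% (3.04 to 5.44), osteoclast-type cells 9.96% (8.20 to 11.96) and 12.4% (10.4 to 14.7) C1q-high macrophages 1.55% (0.918 to 2.43) and 2.87% (1.87 to 4.21), and cells of no gate 29.7% (27.3 to 32.3) and 37.0% (34.1 to 40.03). The intervals of macrophages and of cells of no gate did not overlap, and those of the others did. The interval of the difference itself lay below 0 also in dendritic cells, at -10.6 percentage points (-19.8 to -1.68), and in C1q-high macrophages, at -1.33 (-2.77 to -0.050), but not in monocytes (-3.13 to 0.18) or osteoclast-type cells (-5.28 to 0.30). In immature neutrophils it lay above 0, at 0.684 (0.106 to 1.37), with 1.16% high cells in THP and 0.479% in vehicle. These shares rest on 19 and 10 cells. All these intervals cover counting error only, and not the spread between dishes or library preparations. Within high cells the amount per 10000 was alike in macrophages (135 and 139), C1q-high macrophages (106 and 109.6) and osteoclast-type cells (160.1 and 158), higher in THP among dendritic cells (337 and 310) and cells of no gate (291 and 202), and lower among the few high monocytes (107 and 158). Within macrophages that were not high it was 4.02 and 5.20.

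**Figure D4:**
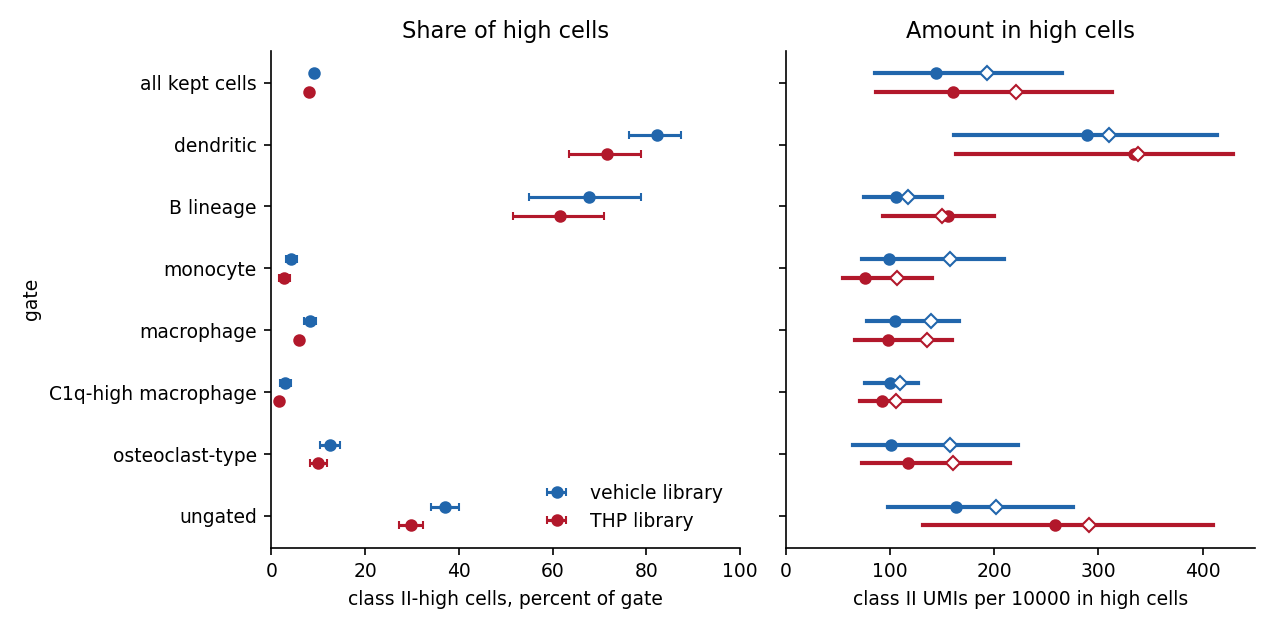
Left, class II-high cells as a percent of each gate with exact binomial 95% intervals; right, class II UMIs per 10000 in high cells, where filled points are medians, open diamonds means and bars quartiles over cells. The THP share lies under the vehicle share in each gate drawn, while the amounts lie close together in macrophages and osteoclast-type cells and higher for THP in cells of no gate.

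An arithmetic split of the difference in the 4 summed genes, 1542 CPM in THP less 1950.2 in vehicle or -408, gave -271 CPM to the share of high cells within gates and -241 to the number of UMIs that each kind of cell brings to the sum. The amount in other cells took -94.0, the shares of the gates -11.7 and the amount in high cells 209.7. High cells had a median of 13368 UMIs in THP and 18257 in vehicle, so in summed counts they weigh less in THP. With equal weight for each cell the total difference was -5.02 CPM, made of -335 for the share of high cells, 317 for the amount in them, 72.9 for the shares of the gates and -60.8 for other cells.

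Ciita and the DM genes were then read in cells with like amounts of class II RNA. Ciita was higher in cells with more class II in both libraries, and at each step it was lower in THP. In cells with under 5 class II UMIs per 10000 it stood at 0.345 CPM (0.249 to 0.464) in THP and 0.873 (0.709 to 1.06) in vehicle, in cells of 5 to 50 at 5.58 (4.88 to 6.36) and 12.4 (11.4 to 13.6), in cells of 50 to 200 at 50.4 (46.3 to 54.8) and 83.9 (79.3 to 88.6), and in cells of 200 and over at 230.1 (216 to 245) and 267 (253 to 281). The intervals did not overlap in these 4 steps, and with no class II UMI Ciita rested on 8 and 10 UMIs. No step has a background of all genes beside it, and neither TMM scaling nor the length correction was applied here. The part of the general shift in these steps was thus not tested. In the cluster led by Ccl5, described above, Ciita stood at 234 CPM in THP and 223 in vehicle. H2-DMa was lower in THP up to 200, with 195 and 258 CPM in cells of 50 to 200, and higher in cells of 200 and over, with 546 (524 to 568) and 513 (494 to 533). H2-DMb1 stood at 252 and 282 CPM in cells of 50 to 200 and at 607 (584 to 631) and 570.2 (549.6 to 591) above, so the intervals of both DM genes overlapped in the top step. H2-DMb2 and H2-Oa were higher in THP in the top step, with 103 (93.8 to 113) and 72.6 (65.4 to 80.4) CPM and 115 (105.1 to 126) and 89.9 (81.8 to 98.5), while H2-Ob was level there at 44.7 and 44.6.

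**Figure D5:**
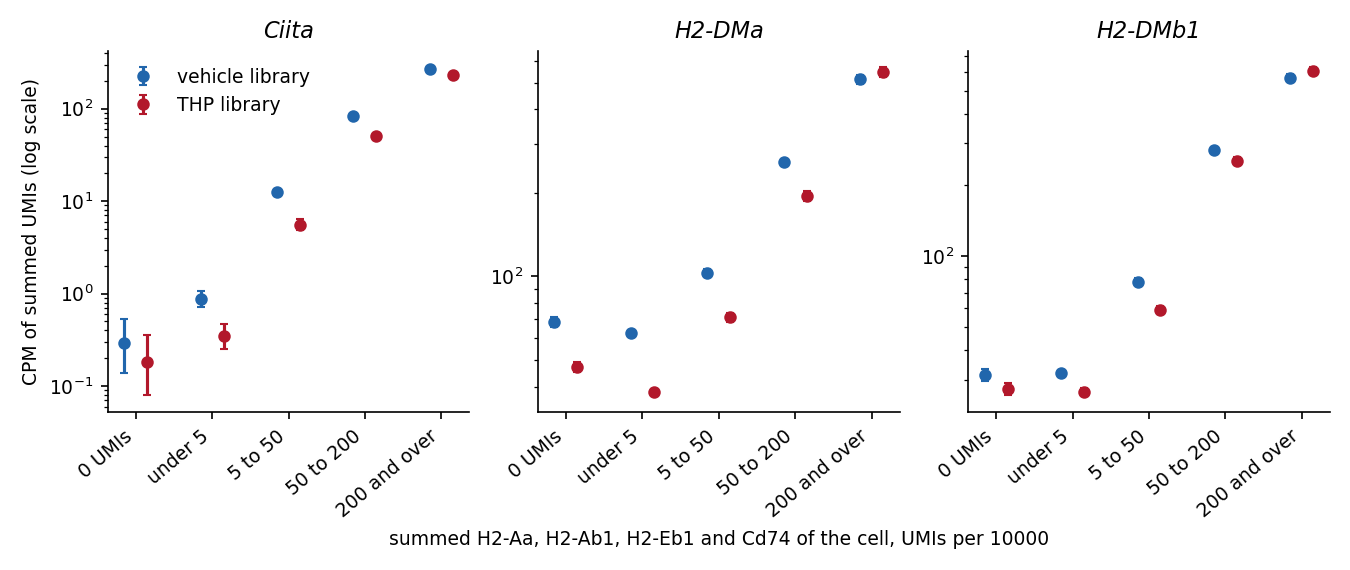
CPM (log axes) of Ciita, H2-DMa and H2-DMb1 in cells grouped by their class II UMIs per 10000, vehicle in blue and THP in red, with exact Poisson 95% intervals. Without scaling for the general shift, Ciita lies lower in THP in all 5 groups, while H2-DMa and H2-DMb1 cross over in cells of 200 and over.

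The share of cells with a UMI ran the same way for Ciita at equal depth. After thinning to 5000 UMIs, 1.70% of THP and 3.52% of vehicle macrophages had a Ciita UMI (5.00% and 11.1% before thinning, at median depths of 21374 and 23923). Immature neutrophils, the background here, had 0.740% and 0.642% (0.857% and 0.767% before, at 6898 and 7699). For H2-Aa the thinned shares were 14.9% and 21.2% of macrophages (29.5% and 39.2% before) beside 4.53% and 6.35% of immature neutrophils (6.00% and 9.49% before). Thinned monocytes had an H2-Eb1 UMI in 3.98% of THP and 11.6% of vehicle cells (8.68% and 21.6% before, at 15874 and 19025), and the THP value is at the background of 4.26% in immature neutrophils (4.71% in vehicle). Cd74 did not differ in that way, with 54.5% and 52.5% of thinned monocytes (72.9% and 70.6% before) beside 13.4% and 13.1% of immature neutrophils.

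Of 38 other genes listed for class II control and antigen processing, 35 were matched and 29 reached 10 CPM. Of these 15 were lower and 14 higher in THP, beside 67.6% of all genes tested that were lower, with a median log2 ratio of -0.06 beside -0.18 for all genes, and TMM scaling left 7 lower. Among proteins that turn class II over at the surface, March1, a ubiquitin ligase that sends class II of dendritic and B cells to degradation, stood at 16.8 CPM in THP and 49.2 in vehicle. March1 was the 1 gene of the 29 tested past 2-fold lower, beside 2.97% of all genes tested. It was lower in each of the 11 gates that could be counted and in cells of no gate, for instance at 51.1 and 150 CPM in dendritic cells and 8.95 and 35.4 in macrophages. Cd83, which opposes March1, stood at 9.04 and 3.87 CPM, and was singled out after its values were seen. Tmem131l stood at 18.0 and 32.0 CPM. Of 4 tested turnover genes 4 were lower, beside 67.6% of all genes tested, and 3 with TMM scaling. Their median log2 ratio was -0.57 beside -0.18.

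Of 4 tested transcription factors upstream of Ciita 3 were lower, beside 67.6% of all genes tested, and 2 with TMM scaling. Their median log2 ratio was -0.24 beside -0.18. The 1 that was higher in THP was Spi1, the PU.1 factor of myeloid cells, at 546 and 396 CPM. Of 4 tested interferon gamma and IL-10 receptor genes 1 was lower, beside 67.6% of all genes tested, with a median log2 ratio of 0.028 beside -0.18. This was Ifngr1, a chain of the interferon gamma receptor, at 102 and 165 CPM. Of 5 tested enhanceosome genes 4 were lower, beside 67.6% of all genes tested, with a median log2 ratio of -0.23 beside -0.18, and 1 was lower with TMM scaling. Rfx5, the RFX subunit that binds the X box, stood at 4.52 and 6.74 CPM. Of 7 tested processing proteases and partners 0 were lower, beside 67.6% of all genes tested, with a median log2 ratio of 0.25 beside -0.18. Among them Ctsl stood at 2105 and 1498 CPM, while Ctss, the protease that trims the invariant chain, was level at 545 and 545. H2-Eb2 stood at 0.271 and 0.385 CPM, and H2-Ea was not analysed here.

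Over 22 points (11 gates in 2 libraries), log2 levels of Ciita followed those of the 4 summed genes with a Pearson r of 0.96 (Spearman's rho 0.91). The DM and DO genes had r of 0.72 to 0.82 and rho of 0.40 to 0.64. The points share libraries and differ in depth, so this is a description. The other genes most like the sum were Rnase6, an antimicrobial ribonuclease (0.93), Pfdn5, a prefoldin subunit (0.89), Tspan13, a tetraspanin (0.85), Fau, which encodes a ribosomal protein (0.85), and H2-T23, a non-classical class I gene (0.84). Rnase6 stood at 291 and 283 CPM in dendritic cells, 88.0 and 81.7 in B lineage cells and 9.47 and 12.7 in macrophages.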

How the data were processed

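The deposited matrices hold unnormalized UMI counts, 1 per gene and barcode, written by software version 3.1.0 in matrix format 2, per the file headers. The submitters' processing notes name Cell Ranger, STAR, bcl2fastq and mm10. UMIs mark 1 end of a molecule, so levels were not divided by length. A barcode was kept with at least 500 genes, 1000 UMIs and at most 10% mitochondrial UMIs. No doublet caller was run, and an alternative dropped the 5% of cells with most UMIs instead.

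The members and lists were chosen with earlier results of these data known. Gates used summed marker UMIs per 10000. Their levels were set after seeing the data, and Itgax, Mgl2, Ccl22, Ccl17, Bst2, Ly6d, Cox6a2, Nkg7, Klrd1, Il7r and Gzma were dropped from the marker lists then, because some of them were raised in macrophages of the THP library. Within 20% of the macrophage level lay 1085 THP and 993 vehicle cells, and of the monocyte level 526 and 841. The level for class II-high cells was to be set at a trough, but none was found, so 50 is a set value.

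UMIs were summed per gate and library and given as CPM, and log2 ratios are of CPM + 1, which understates changes of low genes. Counts of members used genes with at least 10 CPM in a library and gates with at least 50 cells in each. Intervals are exact Poisson and Clopper-Pearson 95% intervals (scipy 1.17.1), and these were checked on simulated data. The interval of a difference of shares was not checked in that way, and it covers counting error only too. Clusters came from scanpy 1.11.5 without the members (2000 variable genes, 30 components, 15 neighbours, Leiden resolution 0.5), TMM and RLE factors from edgeR 4.0.16, with no test, and the length curve from statsmodels 0.14.6 (span 0.3) over the 99.6% of genes with a length. The split averages over all orders of changing its 5 factors. Named genes were the members, the 6 listed genes with the largest ratios (1 of them is not reported here), Rfx5, Ctss, H2-Ea, H2-Eb2 and the 5 genes most like the class II sum.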

Additional observations from a re-analysis of the deposited data

Results flagged for a closer look

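For the 4 summed class II genes, 5 gates ran against the macrophage gate, where the log2 ratio of CPM was -0.55. The values were 1.33 in the T and innate lymphoid gate, 0.41 in mature neutrophils, 0.45 in immature neutrophils, 0.11 in myeloid progenitors and 0.74 in stromal cells. They were singled out because the 1 THP library lay above the 1 vehicle library there and below it in macrophages. The difference between the gates was not tested. In mature neutrophils that were not class II-high, the level was 108 CPM in THP and 126 in vehicle, so the direction there turned when 21 THP and 14 vehicle cells were left out.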

How the results depend on the processing

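No paired analysis was possible because each group had 1 library. For the same reason no library was left out. Depth limits the members under 10 CPM, H2-DMb2, H2-Oa and H2-Ob, and Ciita in the monocyte and 3 macrophage-type gates, where it rests on 33 to 565 UMIs. Values here are log2 ratios, THP over vehicle, unless said otherwise, and the cause of a move was not tested. Values that kept their sign are given where they moved by more than the counting interval. Values that turned sign are given whether or not they moved that far. The turned value of H2-DMb2 in the dendritic gate with TMM, for instance, lay inside its interval of -0.57 to 0.20. For single members, 157 alternatives moved the value by less than the counting interval, 149 by more with the same sign, and 35 turned the sign.

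Over all kept cells the 4 summed genes went from -0.34 to -0.054 with TMM, -0.060 with RLE, -0.0035 with equal weight per cell, -0.33 over all barcodes, -0.29 without the 5% of cells with most UMIs and -0.23 with the same mix of gates. With equal weight 6 of 10 members were lower, and H2-Aa (0.0078), H2-Ab1 (0.028), H2-Oa (0.13) and H2-Ob (0.12) turned, as did H2-DMb2 (0.0072) and H2-Oa (0.0026) with the same mix. At 1.5-fold in place of 2-fold, 2 members were called lower. Thinning moved the share of high cells from -1.12 to -2.19 percentage points. The amount in high cells went from 0.19 to 0.18 at a halved or doubled level, 0.21 with cells picked by Cd74 alone and 0.15 by medians.

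In the dendritic gate the 4 genes went from -0.16 to 0.019 with gate levels halved, -0.23 with them doubled, 0.38 in clusters, 0.050 with TMM and -0.10 without the cells of most UMIs. In clusters 10 of 10 members turned: H2-Aa 0.46, H2-Ab1 0.44, H2-Eb1 0.39, Cd74 0.33, Ciita 0.074, H2-DMa 0.18, H2-DMb1 0.18, H2-DMb2 0.77, H2-Oa 0.65 and H2-Ob 0.17. With TMM H2-Aa (0.15), Cd74 (0.059), Ciita (0.062), H2-DMa (0.12), H2-DMb1 (0.093), H2-DMb2 (0.033) and H2-Oa (0.19) turned, with levels halved H2-Aa (0.12), Cd74 (0.021), H2-DMa (0.0083) and H2-Oa (0.25), with levels doubled H2-Oa (0.033), and without the cells of most UMIs H2-Aa (0.0011) and H2-Oa (0.041).

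Monocytes went from -0.47 to -0.34 with levels doubled, -1.36 in clusters, -4.71 less the neutrophil level, -0.29 with TMM, -0.38 without the cells of most UMIs and -0.51 less the level of neutrophils that were not high (an alternative chosen after seeing the data, as was equal weight in the split). In that order with levels halved first, macrophages went from -0.55 to -0.48, -0.58, -0.60, -1.69, -0.32, -0.50 and -0.59, and osteoclast-type cells from -0.41 to -0.44, -0.44, -0.56, -0.81, -0.23 and -0.45. C1q-high macrophages went from -0.40 to -0.28, 0.28 (turned), -0.15 in clusters, -0.18 with TMM and -0.44 less that level. The level of all neutrophils was above this gate in THP, so that alternative gave no value. H2-Aa (0.25), H2-Ab1 (0.17) and Cd74 (0.40) turned there with levels doubled and H2-Oa (-0.048) with levels halved, and H2-DMb2 turned in macrophages with TMM (0.041).

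The split, in CPM, gave to the share of high cells, UMIs per cell and other cells -330.5, -224 and -41.6 at the halved level of 50, and -155, -209 and -201 at the doubled one, which gave 169 to the amount in high cells. With gate levels halved the shares of gates took -52.2, the share of high cells -225, UMIs per cell -225 and the amount in high cells 183, and with them doubled 9.82 (turned), UMIs per cell -194 and the amount 156. In clusters they took -28.9, UMIs per cell -156, the amount 156 and other cells -113. With equal weight the shares of gates took 72.9 (turned), high cells -335, the amount 317 and other cells -60.8. Listed other genes lower numbered 15, and 7 with TMM or RLE. Of the 5 genes most like the sum 3 were shared with Spearman's rho.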
